A study of Rattus norvegicus with 12 samples.

Results

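Microglia, the resident macrophages of brain tissue, and the macrophages that line its vessels and coverings were followed through 35 marker genes named by symbol. A named gene was kept when a probe set of the array carried its symbol alone and averaged above 4 on the log2 scale, and the brightest such probe set stood for the gene. Of the 35, 31 were measured, among 14847 genes tested. They comprised 9 homeostatic microglia genes of 10 named, 3 border macrophage genes of 4 and 19 genes shared by both kinds of cell of 20, while Slc2a5os belonged to no class. Fcrls and Slc2a5os had no probe set under their symbol in the annotation used, and the probe sets of Lyz2 and Fcgr2b carried 2 symbols, so these 4 were not analysed.

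The tissue was prefrontal cortex (PFC) of adult male Sprague-Dawley rats, with no genetic modification named in the labels. The 6 Stress rats received inescapable footshock (FS) for 40 min, at 0.8 mA and with 20 min of actual shock in all, separated by gaps of 2 to 8 s. The 6 Control rats stayed in the home cage without any shock. All were killed 2 h after the session began, and each rat had an array of its own, so that precision is limited by 12 animals. In their dimmest probe sets the arrays fell into 2 sets, called array set 1 (Control 1 to Control 4) and array set 2 (Control 5, Control 6 and all 6 Stress rats). No label says what lies behind this division. Differences are therefore given also within array set 2, which holds both groups but only 2 Control rats. Of these, Control 5 stood apart in its choroid plexus genes. Array medians were 5.48 to 5.54, and any 2 arrays correlated at 0.994 to 0.998 without being identical.

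Microglia settle in the brain early in development and survive there through the receptor Csf1r, while the transcription factors Spi1 (PU.1) and Irf8 maintain their identity. At rest they survey the tissue with receptors for neuronal fractalkine (Cx3cr1) and for nucleotides released by active or damaged cells (P2ry12, P2ry13), and they supply most of the C1q that starts the classical complement cascade and tags synapses. Border macrophages sit around vessels, in the meninges and in the choroid plexus, and are told apart by scavenger and antigen presentation genes. Glucocorticoids, released during stress, act on both kinds of cell through the glucocorticoid receptor.

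The upstream DNA of 4 genes is shown because these genes carry the motif of Spi1 and stand for the classes and for the complement genes that moved together across rats, as described further on. Each run holds the 250 bases before the annotated start in the GRCr8 assembly of RefSeq, read 5′ to 3′ on the strand of the gene, with motif matches in capitals. Of the 31 genes, 21 had an entry in the promoter table.
C1qb (chr5:154407828-154408077, minus strand): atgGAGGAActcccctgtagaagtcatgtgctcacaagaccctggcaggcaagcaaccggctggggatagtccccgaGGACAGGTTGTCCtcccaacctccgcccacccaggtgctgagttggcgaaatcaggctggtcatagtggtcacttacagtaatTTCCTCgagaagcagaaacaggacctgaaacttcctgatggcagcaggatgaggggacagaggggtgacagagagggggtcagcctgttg
Gpr34 (chrX:11785837-11786086, minus strand): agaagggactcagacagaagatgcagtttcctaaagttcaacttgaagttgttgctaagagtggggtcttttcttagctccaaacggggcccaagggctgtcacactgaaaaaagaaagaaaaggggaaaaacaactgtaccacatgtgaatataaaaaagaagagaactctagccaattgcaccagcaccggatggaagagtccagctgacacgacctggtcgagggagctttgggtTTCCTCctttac
Cd53 (chr2:197087897-197088146, minus strand): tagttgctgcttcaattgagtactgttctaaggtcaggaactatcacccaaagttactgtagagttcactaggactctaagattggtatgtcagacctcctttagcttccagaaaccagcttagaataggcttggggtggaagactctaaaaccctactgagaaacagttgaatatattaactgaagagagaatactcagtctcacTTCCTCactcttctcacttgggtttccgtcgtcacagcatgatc
Mrc1 (chr17:82157475-82157724, plus strand): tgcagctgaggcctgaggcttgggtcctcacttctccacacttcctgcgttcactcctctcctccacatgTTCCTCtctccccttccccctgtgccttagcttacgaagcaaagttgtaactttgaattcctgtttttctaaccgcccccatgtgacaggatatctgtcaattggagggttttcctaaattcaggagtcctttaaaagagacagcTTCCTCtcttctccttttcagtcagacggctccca
In these runs GAGGAA, or TTCCTC where it lies on the other strand, is the core that Spi1 binds, and the capitals GGACAGGTTGTCC in C1qb match a glucocorticoid response element (GNACA and TGTNC with 3 bases between). On either strand, the Spi1 core occurred in 14 of the 21 upstream runs (66.7%), against 23.3% of the 33469 in the table. It was found in 2 of 5 homeostatic, 2 of 3 border and 10 of 13 shared genes. The composite motif of Spi1 with interferon regulatory factors (GGAA and GAAA with 2 bases between), which can overlap the core at its GGAA, was present for Cd74 and Cd68, 2 of 21 (9.52%) against 2.48%. C1qb alone among the 21 held the glucocorticoid motif (4.76% against 0.373%). These matches are letters in a short window and say nothing about occupancy.

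None of the 31 genes passed the threshold of the comparison between Stress and Control, an adjusted p of at most 0.05 from limma over all probe sets tested. The share of all genes past it was 0.0471% (7 of 14847). Without adjustment, 10 of the 31 had a p under 0.05, which is 32.3%, against 6.4% of all genes. Of these, 8 were lower in Stress, where 2.92% of all genes were, and 2 were higher, where 3.48% were. The 8 were Cx3cr1, Gpr34, P2ry13, Selplg, Ly86, Ptprc, Irf8 and Cd53, and the 2 were Tmem119 and C1qb. Over all 31, 22 were lower and 9 higher, with a median log2 difference (Stress minus Control) of -0.07, whereas 53.0% of all genes were higher and their median was 0.0038. The median was also -0.07 within array set 2, where 23 were lower. Without Control 5, which stood apart in choroid plexus genes, 8 of the 31 had an unadjusted p under 0.05, against 6.04% of all genes, and the median was -0.04. Within array set 2, 5 of the 31 had an unadjusted p under 0.05 (6.61% of all genes did). With array set as a term of the fit over 12 arrays 3 did (5.68% of all genes). The 5 were P2ry13, Tmem119, Cd53, Ly86 and P2ry12, which was not among the 10, and the 3 were P2ry13, Tmem119 and Cd53. Cx3cr1 was in neither count. In RNA of whole tissue, fewer cells of a type and less RNA per cell cannot be told apart.

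**Figure D1:**
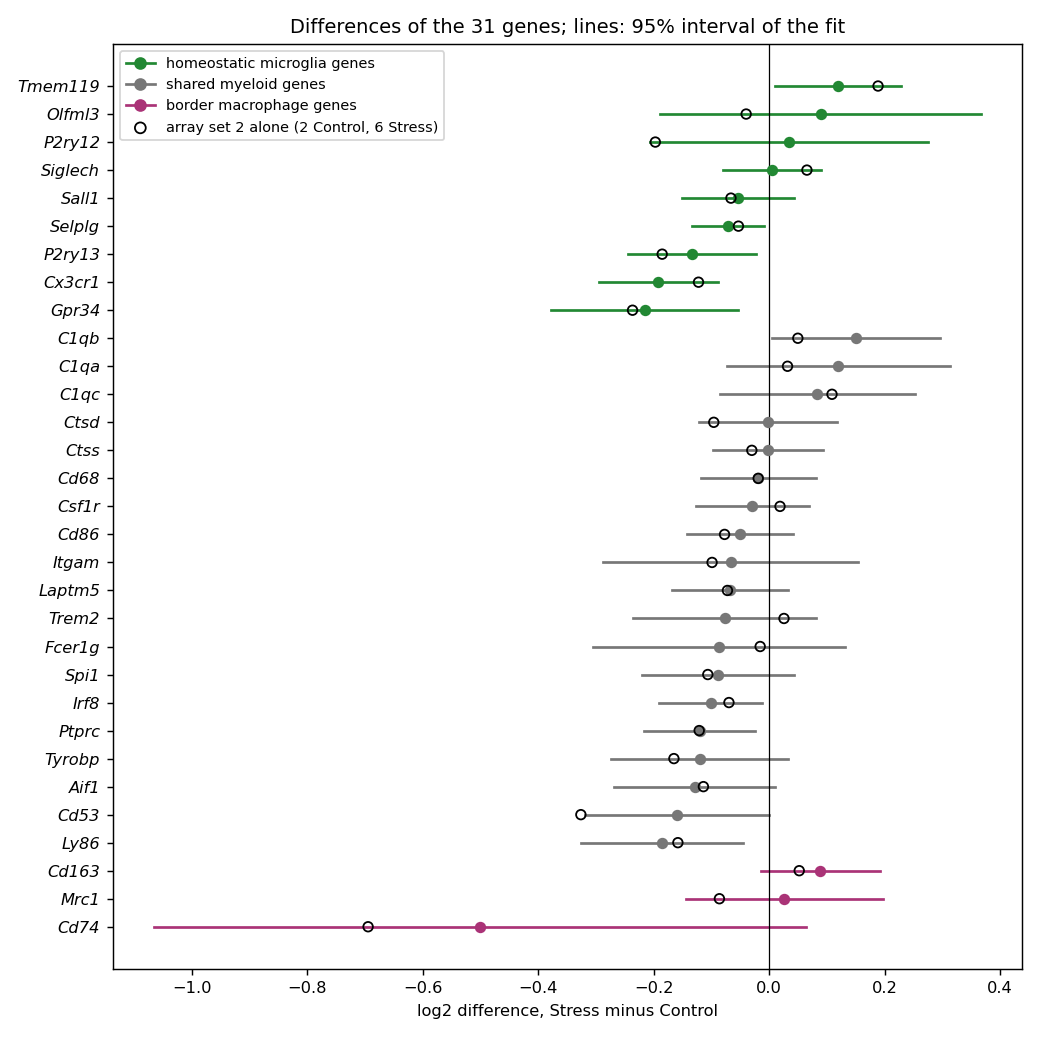
Log2 difference between Stress and Control (x axis) for each of the 31 genes (y axis), ordered within the 3 classes; filled points and lines are the estimate over 12 arrays with its 95% interval, and open circles the difference within array set 2. Most points lie at or below 0, Cd74 is farthest to the left at -0.50 with an interval that reaches 0.06, and the open circle of P2ry12 lies on the other side of 0 from its filled point.

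Of the 9 homeostatic genes, 5 were lower and 4 higher in Stress, and 2 were higher within array set 2. Cx3cr1, the receptor of fractalkine, had values of 9.21, 9.40 and 9.44 (lowest, median, highest) in Control and of 9.08, 9.19 and 9.32 in Stress. In Control, 5 rats lay between 9.40 and 9.44 and Control 6 was at 9.21, so the groups overlapped and 4 Stress rats fell below every Control rat. Its log2 difference was -0.19 with an SE of 0.048, or 0.876-fold, and its p was the smallest of the 31 genes (limma, adjusted p = 0.323). Within array set 2 the difference was -0.12.

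Gpr34, a receptor of lysophosphatidylserine, ran from 7.12 over a median of 7.21 to 7.44 in Control and from 6.87 over 7.01 to 7.31 in Stress. All Stress rats other than Stress 3 lay below every Control rat. The log2 difference was -0.22, SE 0.076 (limma, adjusted p = 0.66), and -0.24 within array set 2. P2ry13, a receptor of ADP, had 7.45, 7.72 and 7.78 in Control and 7.48, 7.57 and 7.61 in Stress. The low value of Control 2, 7.45, is what made the groups overlap, since the other 5 Control rats stood at 7.71 or more. Its difference was -0.13 over all arrays (SE 0.052, adjusted p = 0.70) and -0.19 within array set 2.

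P2ry12, the ADP receptor by which microglial processes find injury, lies next to P2ry13 in the genome. Its values were 7.88, 8.56 and 8.69 in Control and 8.39, 8.49 and 8.58 in Stress. Again Control 2 was the lowest of all 12 rats, and the other Control rats spread from 8.32 to 8.69. The difference over all arrays was 0.03 (SE 0.11, 95% interval -0.21 to 0.28, adjusted p = 0.977), but -0.20 within array set 2 and -0.08 without Control 2.

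Tmem119, a surface protein used to mark microglia, was the homeostatic gene with the highest positive difference. Control rats had 7.50, 7.61 and 7.81 and Stress rats 7.67, 7.76 and 7.80. The 6 Stress rats were close together, and only Control 1 and Control 3 reached their range. The difference was 0.12 (SE 0.051, adjusted p = 0.742), and 0.19 within array set 2. Selplg, the ligand of P-selectin, is separated from Tmem119 by a single annotated gene and had a difference of the opposite sign. It was -0.07 (SE 0.029, adjusted p = 0.738), with 5 Stress rats below every Control rat, and -0.05 within array set 2.

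The groups overlapped for every homeostatic gene, the remaining ones included. Sall1, a transcription factor of microglial identity, had a log2 difference of -0.05, Olfml3, a secreted protein, one of 0.09, and Siglech, a sialic acid-binding lectin, one of 0.005, with adjusted p of 0.895, 0.951 and 0.993. Olfml3 was at -0.04 within array set 2. Over the class the median was -0.05, and -0.07 within array set 2.

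**Figure D2:**
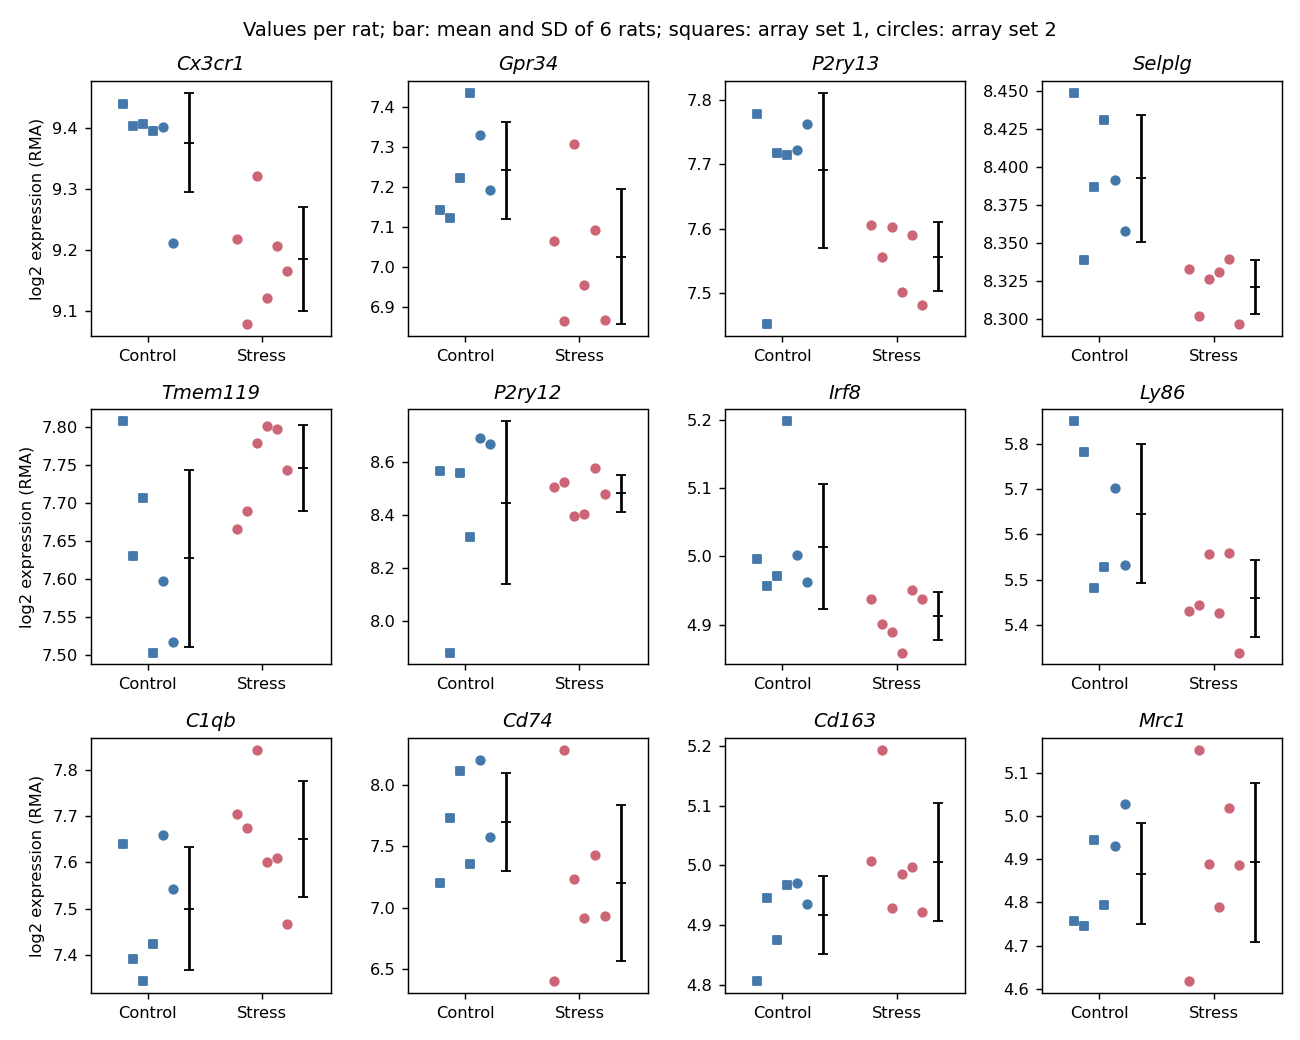
Log2 expression per rat (y axis) of 12 of the genes in Control and Stress (x axis), with the mean and SD of 6 rats beside each group; squares are array set 1 and circles array set 2. Irf8 is the panel whose groups do not overlap, single Control rats stand apart in Cx3cr1, P2ry12, P2ry13 and Irf8, and the spread of Cd74 is wider than its group difference.

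The shared myeloid genes were lower in 16 of 19 cases, with a median log2 difference of -0.07, also within array set 2. Among the factors that maintain myeloid identity, Irf8 had values of 4.96, 4.98 and 5.20 in Control and of 4.86, 4.92 and 4.95 in Stress. It was the 1 gene of the 31 whose groups did not overlap, which held for 0.458% of all genes, and the gap was narrow, from a highest Stress value of 4.95 to a lowest Control value of 4.957. Control 4, at 5.20, stood apart from the other Control rats. The difference of -0.10 (SE 0.042, limma adjusted p = 0.738) was -0.06 without Control 4 and -0.07 within array set 2. Spi1 itself had a difference of -0.09 (adjusted p = 0.867) with overlapping groups. RMA values of dim probe sets such as these understate differences.

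Csf1r, the receptor of colony-stimulating factor 1 on which microglial survival rests, had 8.49, 8.66 and 8.73 in Control and 8.53, 8.64 and 8.69 in Stress. The ranges lay almost on top of each other. Its difference was -0.03 with a 95% interval from -0.13 to 0.07, and 0.02 within array set 2.

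Of the leukocyte surface genes, Ptprc (CD45, a phosphatase) had 4.69, 4.81 and 4.89 in Control and 4.58, 4.66 and 4.79 in Stress, with 4 Stress rats below every Control rat. The difference was -0.12 (SE 0.045, adjusted p = 0.669), also within array set 2, whereas a second, dimmer probe set of Ptprc gave 0.0073. Ly86 (MD-1, partner of a receptor related to toll-like receptors) had 5.48, 5.62 and 5.85 in Control and 5.34, 5.44 and 5.56 in Stress. Here 4 Stress rats were below every Control rat, and Control 1 and Control 2 were the highest of all rats. Its difference was -0.19 (SE 0.065, adjusted p = 0.66), and -0.16 within array set 2. Cd53, a tetraspanin of leukocytes, had a difference of -0.16 (SE 0.074, adjusted p = 0.783) that was -0.33 within array set 2, where Control 5 and Control 6 were its 2 highest rats at 7.76 and 7.82.

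The complement genes C1qa, C1qb and C1qc encode the chains of C1q, lie side by side in the genome, and were all on the higher side. C1qb had 7.34, 7.48 and 7.66 in Control and 7.47, 7.64 and 7.84 in Stress, and 3 Stress rats exceeded every Control rat. Its difference was 0.15 (SE 0.068, limma adjusted p = 0.777). C1qa had 6.97, 7.22 and 7.55 in Control against 7.18, 7.32 and 7.58 in Stress, and C1qc 5.83, 5.98 and 6.33 against 5.93, 6.09 and 6.30. For both the groups overlapped over most of their ranges, with Control 1 the highest Control rat, and the differences were 0.12 (SE 0.090) and 0.08 (SE 0.079). Within array set 2 the C1qb difference was 0.05, that of C1qa 0.03 and that of C1qc 0.11.

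Trem2, a receptor for lipids, and Tyrobp, the adaptor through which it signals, were measured as a receptor pair. Trem2 had 5.97, 6.28 and 6.44 in Control and 6.06, 6.20 and 6.30 in Stress, with a difference of -0.08 (SE 0.074) that was 0.03 within array set 2. Tyrobp had 8.05, 8.20 and 8.39 in Control and 7.87, 8.09 and 8.28 in Stress, and its difference was -0.12 (SE 0.071, adjusted p = 0.839). Neither gene separated the groups. Fcer1g, a second signalling adaptor, had a difference of -0.09 (SE 0.10), and Stress 6 was the lowest rat in both adaptors.

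The other shared genes ranged in log2 difference from -0.13 to -0.002. Aif1 (Iba1, an actin-binding protein) stood at -0.13, Laptm5 (a lysosomal membrane protein) at -0.07, Itgam (CD11b, an integrin chain) at -0.07, Cd86 (a co-stimulatory molecule) at -0.05 and Cd68 (a lysosomal glycoprotein) at -0.02. The lysosomal proteases Ctss and Ctsd both stood at -0.002, with 95% intervals from -0.10 to 0.09 and from -0.12 to 0.12. All 7 had an unadjusted p above 0.05.

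Border macrophage genes showed no common difference. Cd74, the invariant chain that escorts MHC class II molecules and is made by border macrophages and other antigen-presenting cells, had 7.20, 7.66 and 8.21 in Control and 6.40, 7.08 and 8.29 in Stress. The lowest and the highest of the 12 rats, Stress 1 and Stress 2, were both in the Stress group, and 3 Stress rats lay below every Control rat. The log2 difference was -0.50 with an SE of 0.26 and a 95% interval from -1.06 to 0.06 (limma, adjusted p = 0.812). It was -0.69 within array set 2, and it ran from -0.72 without Stress 2 to -0.34 without Stress 1. Its spread within groups, an SD of 0.535, was larger than that of 99.6% of all genes.

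Mrc1 (CD206, the mannose receptor) had 4.75, 4.86 and 5.03 in Control and 4.62, 4.89 and 5.15 in Stress. As with Cd74, Stress 1 was the lowest rat and Stress 2 the highest. Its difference was 0.03 (SE 0.080, adjusted p = 0.976), and -0.09 within array set 2. Cd163, the scavenger receptor of haemoglobin bound to haptoglobin, had 4.81, 4.94 and 4.97 in Control and 4.92, 4.99 and 5.19 in Stress. Although 4 Stress rats exceeded every Control rat, the difference of 0.09 (SE 0.048, adjusted p = 0.814) was 0.05 without Stress 2. Both are among the 8 of the 31 genes with a mean of at most 5, where values lie near background.

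The contrast between classes set a median log2 difference of -0.05 over 9 homeostatic genes against 0.03 over 3 border genes, a gap of -0.08. Within array set 2 the medians were -0.07 and -0.09, and the gap was 0.02, of the other sign. Both gaps were smaller than 0.17, the SD between replicates of the same contrast of medians. That SD is the spread of single rats and not the error of a gap between groups, and neither gap was tested. In the border class the median is the value of Mrc1 alone, since Cd163 lay above it and Cd74 below.

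Among markers of neighbouring tissue, the meningeal fibroblast list shared its extreme rats with Cd74. The choroid plexus list was highest in Control 5 and lowest in Control 1. Among Stress rats it was highest in Stress 2, the highest rat for Cd74, at -0.13 after centring on a mean that Control 5 raised. The mean of 9 meningeal fibroblast genes, each centred over the 12 arrays, was lowest in Stress 1 at -0.69 and highest in Control 5 at 0.57 and Stress 2 at 0.53, and the same 3 rats were the lowest and the 2 highest for Cd74. Over groups the meningeal means ran from -0.34 to 0.57 in Control (average 0.02) and from -0.69 to 0.53 in Stress (average -0.02). The median log2 difference of the list was 0.01 over all arrays and -0.26 within array set 2. Of its 9 genes, 0 had an unadjusted p under 0.05, and 4 were lower in Stress over all arrays and 8 within array set 2. The 12 choroid plexus genes averaged 2.73 in Control 5 and lay at or below -0.07 in the other 11 rats. All 12 were lower in Stress, by a median of -0.53, with 0 unadjusted p under 0.05. Within array set 2, where Control 5 is 1 of 2 Control rats, the median was -1.29. There 11 had such a p (6.61% of all genes), and with array set as a term 12 did (5.68% of all genes). Without Control 5 the difference of Cd74 was -0.40. The part of dissected meninges or choroid plexus in the Cd74 values was not tested.

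**Figure D3:**
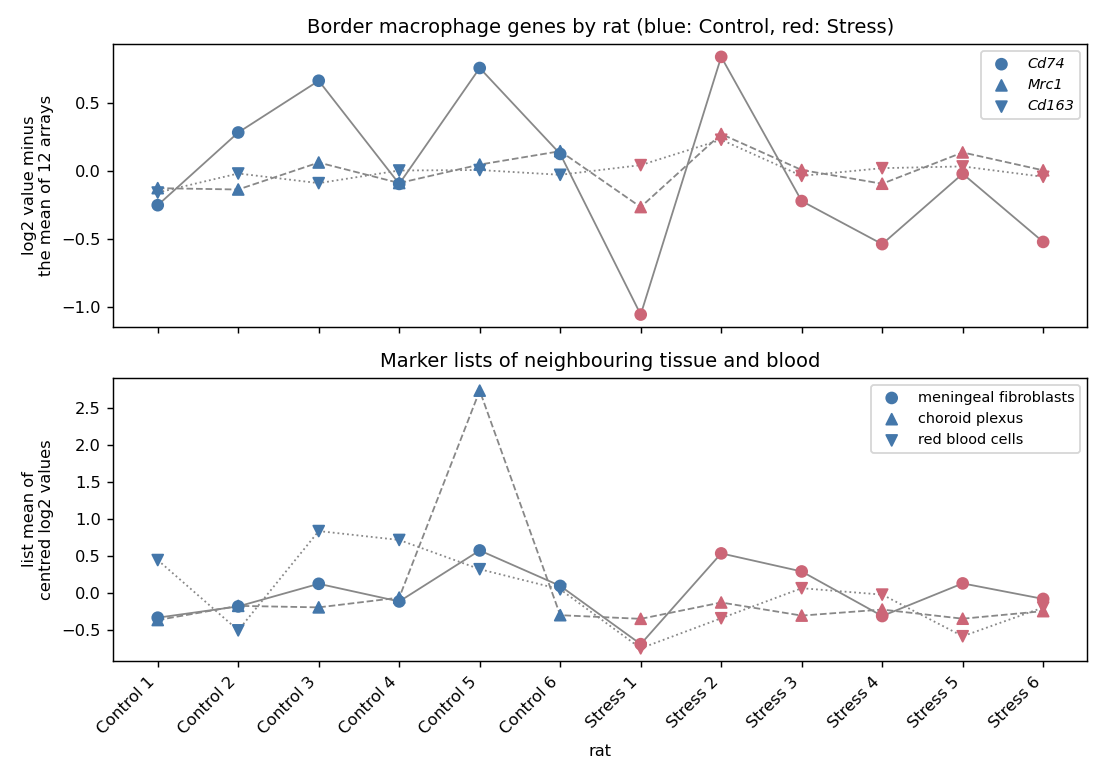
Upper panel, log2 values of Cd74, Mrc1 and Cd163 in each rat (x axis) relative to the mean of 12 arrays; lower panel, mean centred log2 value of the meningeal fibroblast, choroid plexus and red blood cell lists in the same rats. Cd74 and the meningeal list both dip in Stress 1 and peak in Stress 2 and Control 5, and the choroid plexus list departs from the others in Control 5, where it reaches 2.73.

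Blood markers were also compared, since blood leukocytes also express many of the shared genes. Of 9 leukocyte genes measured of 16 named, 8 were lower and 1 higher in Stress, with a median of -0.05 and 0 unadjusted p under 0.05. The one-sided count was lost within array set 2, with 5 lower, 4 higher and a median of -0.007. Their array means ran from -0.03 to 0.10 in Control and from -0.06 to 0.02 in Stress. Ccr2, the chemokine receptor of monocytes, had a log2 difference of -0.12 (adjusted p = 0.806) that was -0.05 within array set 2, Cd3e (a T cell receptor chain) one of -0.08 and Cd79b (a B cell receptor chain) one of 0.06. Ccr2 averaged 4.39 in Control and 4.26 in Stress, and Cd3e 4.26 and 4.18, near the filter level of 4. The 6 red blood cell genes measured were all lower, by a median of -0.69 (-0.63 within array set 2), and 5 had an unadjusted p under 0.05, against 6.4% of all genes. Within array set 2, 4 of them did (6.61% of all genes), and with array set as a term 1 did (5.68% of all genes). Their array means spanned -0.51 to 0.83 in Control and -0.75 to 0.06 in Stress. The part of blood left in the vessels in these values was not tested. Among lists of other brain cells, 0 of 8 neuron, 0 of 5 astrocyte and 1 of 5 oligodendrocyte genes had an unadjusted p under 0.05, as did 5 of 11 endothelial genes, of which 4 were lower and 1 higher. Within array set 2, and also with array set as a term, 6 of the 11 endothelial genes had such a p. The 6 striatal projection neuron genes measured, which stand for tissue beyond the cortex, were all lower, by a median of -0.52, with 0 such p.

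Other genes of the same cells were taken from a longer list. Of 15 further microglia genes measured of 18 named, 9 were lower and 6 higher, with a median log2 difference of -0.04, and -0.005 within array set 2, where 8 were lower and 7 higher. With an unadjusted p under 0.05 there were 2 lower and 2 higher, 26.7% of the 15 against 6.4% of all genes. Within array set 2, 2 of the 15 had such a p, against 6.61% of all genes. Slc2a5, the fructose transporter of microglia, was at -0.17, Tgfbr1, a receptor chain of the transforming growth factor that keeps microglia at rest, at -0.11, and Ikzf1, a lymphoid and myeloid transcription factor, at 0.09 (adjusted p of 0.783, 0.742 and 0.731 by limma). Of 9 further border macrophage genes measured of 12 named, 6 were higher and 3 lower, with a median of 0.03, whereas within array set 2 4 were higher and 5 lower, with a median of -0.01. Tgfbi, a secreted matrix protein, was the 1 of these 9 with an unadjusted p under 0.05 (11.1%, against 6.4% of all genes). It was at -0.24 (SE 0.062, adjusted p = 0.373) and -0.29 within array set 2. Pf4 (a chemokine) stood at -0.07 and Lyve1 (a hyaluronan receptor of perivascular macrophages) at 0.13.

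Genes that act with the markers were examined by role. Of 11 ligands and partners measured, among them Gas6, a ligand of phagocytic receptors (-0.08), Tgfb2 (-0.08) and Cd200r1, the receptor of an inhibitory neuronal ligand (-0.14), 7 were lower and 4 higher, with a median of -0.005 and 0 unadjusted p under 0.05. The count of lower genes was 8 within array set 2, with a median of -0.02. The 8 complement partners measured, which include the protease C1r (0.17), the C3a receptor C3ar1 (-0.16) and the complement inhibitor Csmd1 (0.08), also had 0. In array set 2 alone, C1r was at -0.06, C3ar1 at -0.08 and Csmd1 at 0.13, and 6 of the 8 were lower, against 5 over all arrays. All 7 MHC class II genes named were measured, and 5 were lower, with a median of -0.03, RT1-Db1 at -0.10 (-0.004 within array set 2) and the transactivator Ciita at -0.03. These partners of Cd74 in antigen presentation all had differences nearer to 0 than Cd74, with adjusted p of at least 0.819. The means of RT1-Db1 and Ciita were near 4 in both groups, at the level of the filter, where differences are understated. RT1-DMa, with means of 8.74 in Control and 8.67 in Stress, stood at -0.06 (0.03 within array set 2).

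No gene of the activated state passed the test. Of 12 myeloid activation genes measured of 16 named, 8 were lower and 4 higher, with a median of -0.02. Within array set 2 the balance turned, to 7 higher and 5 lower with a median of 0.01. The 2 with an unadjusted p under 0.05 over all arrays (16.7%, against 6.4% of all genes) were lower. These were Tlr2, a receptor of bacterial lipoproteins (-0.11, adjusted p = 0.74), and the cytokine Il1b (-0.08, adjusted p = 0.76), whose means were near 4 in both groups, at the level of the filter. Tlr4, the receptor of lipopolysaccharide, was at 0.09. For array set 2 alone, Tlr2 was at -0.01, Il1b at -0.05 and Tlr4 at -0.001. The 10 lipid and phagocytic genes measured divided into 5 higher and 5 lower, with 0 unadjusted p under 0.05, Cd9 (a tetraspanin) at 0.17, Gpnmb (a lysosomal glycoprotein) at 0.12 and Itgax (an integrin chain) at -0.07. The values for array set 2 alone were 0.002 for Cd9, 0.11 for Gpnmb and -0.04 for Itgax. None of the genes in these lists passed the adjusted threshold.

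How the genes varied together across rats was described by correlations of the deposited values over the 12 arrays. The median correlation of any 2 of the 31 genes was 0.21, and it was 0.31 within the shared class, 0.12 within the homeostatic class, 0.44 between the 3 border genes and 0.002 between all genes tested. The border value is that of 1 pair, Mrc1 with Cd163, whose Spearman's rho was 0.12. All arrays were normalised together and each rat gave 1 array, so these genes also share the RNA quality and the dissection of that rat. Within groups, the median SD of the 31 genes was 0.11, against 0.085 over all genes, and 19 exceeded the latter.

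Of 10 pairs chosen for a shared complex, receptor or cell type, 5 had an adjusted p of at most 0.05 for Pearson's r and 4 for Spearman's rho, by permutation tests of 100000 draws adjusted over the 10 pairs. C1qa and C1qb had r = 0.86 (permutation p = 0.00051, adjusted p = 0.0051) and rho = 0.85 (permutation p = 0.00072, adjusted p = 0.0072). Without the 2 arrays farthest from the median of C1qa, r was 0.71, and within array set 2 it was 0.75. C1qa with C1qc had r = 0.81 (permutation p = 0.0016, adjusted p = 0.0054) and rho = 0.73 (permutation p = 0.010, adjusted p = 0.033), and r = 0.64 without 2 arrays. C1qb with C1qc had r = 0.76 (permutation p = 0.0038, adjusted p = 0.0095) and rho = 0.71 (permutation p = 0.013, adjusted p = 0.033), and r = 0.55 without 2 arrays. The permutations were drawn over all 12 arrays, so these p values do not set a shared group difference aside. Within Control and within Stress, r was 0.94 and 0.73 for C1qa with C1qb, and 0.84 and 0.71 for C1qa with C1qc. For C1qb with C1qc it was 0.62 and 0.93. The chains of C1q therefore went up and down together over rats, and C1qb was the 1 of them whose group difference had an unadjusted p under 0.05.

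Tyrobp with Fcer1g, both adaptors with the same kind of signalling motif, had r = 0.80 (permutation p = 0.0015, adjusted p = 0.0054) and rho = 0.80 (permutation p = 0.0027, adjusted p = 0.013). The value of r was 0.66 without 2 arrays and 0.79 within array set 2. Tyrobp with its receptor Trem2 had r = 0.39 (permutation p = 0.21, adjusted p = 0.26) and rho = 0.45 (permutation p = 0.15, adjusted p = 0.21). Over 12 arrays the adaptor thus followed the other adaptor with a higher coefficient than the receptor, a difference that was not tested. With Trem2 the coefficient was 0.62 in Control and -0.09 in Stress, and with Fcer1g it was 0.75 and 0.84.

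P2ry12 with its neighbour P2ry13 had r = 0.60 (permutation p = 0.021, adjusted p = 0.042) and rho = 0.64 (permutation p = 0.030, adjusted p = 0.059), and r = 0.72 without 2 arrays. The coefficient was 0.92 in Control, where Control 2 was the lowest rat for both, and 0.26 in Stress. Csf1r with Cx3cr1 had r = 0.55 (permutation p = 0.068, adjusted p = 0.11) and rho = 0.57 (permutation p = 0.058, adjusted p = 0.097), with 0.94 in Control and 0.33 in Stress. Control 6 was the lowest Control rat for both of these.

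Cx3cr1 with P2ry12 had r = -0.22 (permutation p = 0.56, adjusted p = 0.56) and rho = 0.03 (permutation p = 0.92, adjusted p = 0.92), so these receptors of the homeostatic class showed no shared order of rats. Mrc1 with Cd163 had r = 0.44 (permutation p = 0.15, adjusted p = 0.21) and rho = 0.12 (permutation p = 0.72, adjusted p = 0.80), and r was 0.26 without Stress 1 and Stress 2. Mrc1 with Cx3cr1 had r = -0.37 (permutation p = 0.23, adjusted p = 0.26) and rho = -0.36 (permutation p = 0.25, adjusted p = 0.31).

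**Figure D4:**
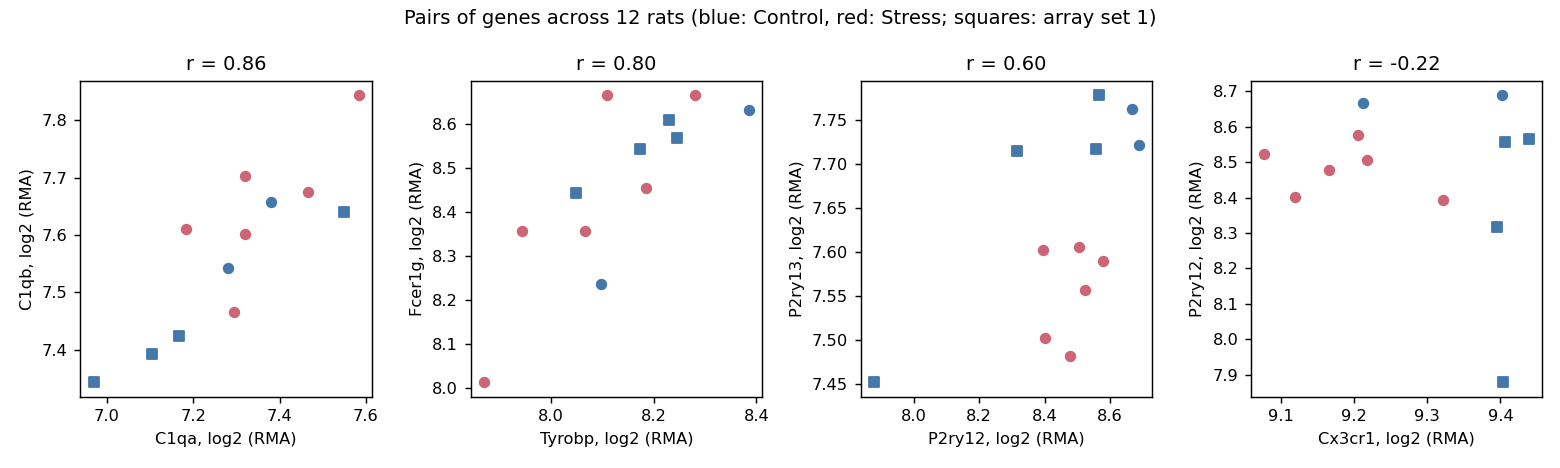
Log2 expression of 2 genes against each other in 12 rats for 4 of the 10 pairs, with Control in blue, Stress in red and squares for array set 1. The points of C1qa and C1qb and those of Tyrobp and Fcer1g follow a line through both groups (r of 0.86 and 0.80), Control 2 lies low in P2ry12 and P2ry13, and Cx3cr1 and P2ry12 show no such line (r = -0.22).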

How the data were processed

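The authors made the deposited values, log2 expression per probe set, from Affymetrix Rat Gene 1.0 ST arrays with RMA of oligo (version 1.58.0), which corrects background, makes intensity distributions alike and summarises probes. A change shared by most genes would be lost, and differences of dim probe sets are understated. Target was made from 250 ng of total RNA. No source used here names the genome build behind the array annotation.

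Of 29214 probe sets, 18644 carried 1 gene symbol, 962 several, and 9608 were not listed in the annotation. Symbols were brought up to date by gene identifier for 99.0%. Stress was compared with Control by lmFit and eBayes of limma 3.58.1 (R 4.3.3) on group alone, over 16085 single-symbol probe sets with a mean above 4, adjusted by Benjamini-Hochberg. The fit was tested on simulated data. Correlations and permutation tests used numpy 2.4.6 and scipy 1.17.1. Array sets were found by clustering arrays on the 3000 dimmest probe sets. Replicate numbers shared by the groups were checked, but the values do not settle whether they pair rats, and a fit with them as a block was run as an alternative.

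Genes, classes and lists were chosen with earlier results of these data known, so lists are described by counts and medians without a test. All genes of the classes are named; values by rat are given for the border genes, the 4 genes of smallest p, genes whose groups do not overlap and a set of well-known markers, and those of P2ry13 and Cd53 were added after their values were seen. Up to 3 genes of smallest p are named per other list. Alternatives were the array set as a term or set 2 alone, a replicate block, each array left out, 3 filters, 2 normalizations, another moderation and the mean of probe sets.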

Additional observations from a re-analysis of the deposited data

Results flagged for a closer look

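In groups of 6 rats, 4 of the 62 groups of values (31 genes, Control and Stress) held a rat whose gap to its nearest neighbour exceeded the critical share of the whole range in Dixon's test. Chance gives this in about 1 in 20 groups. Cx3cr1 was 9.21 in Control 6, with the other Control rats between 9.40 and 9.44, and P2ry13 was 7.45 in Control 2, with the others between 7.71 and 7.78. Irf8 was 5.20 in Control 4, against 4.96 to 5.00 in the others, and Cd163 was 5.19 in Stress 2, against 4.92 to 5.01. The cause was not tested.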

How the results depend on the processing

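Over 22 alternatives, 0 of the 31 genes had an adjusted p of at most 0.05, and the lowest was 0.0969, for Cx3cr1 without Control 6. Of 674 differences recomputed, 642 kept their sign, and 22 genes kept it under every alternative run. The count of genes with an unadjusted p under 0.05 was 10, but 3 with array set as a term and 5 within array set 2, and with 1 array left out it ran from 5 (without Control 4, 6.04% of all genes) to 12 (without Control 1, 6.99% of all genes). The 2 array set alternatives give the same differences, since array set 1 holds no Stress rat, so they are not separate checks of sign. In both, the sign turned for P2ry12 (-0.197), Olfml3 (-0.0399), Mrc1 (-0.0862), Csf1r (0.0187) and Trem2 (0.0256). With arrays centred on their medians Siglech was at -0.00017. With 1 array left out, differences crossed 0 for Cd68 (-0.0402 to 0.00688), Ctss (-0.0252 to 0.0180), Ctsd (-0.0353 to 0.0335), P2ry12 (-0.0788 to 0.0833), Siglech (-0.0131 to 0.0284) and Mrc1 (-0.0261 to 0.0814). The median over all 31 genes ran from -0.08 (without Control 2) to -0.04 (without Control 5), that of the homeostatic genes from -0.08 to -0.03 (without Stress 2), that of the shared genes from -0.09 to -0.04 (without Control 1) and that of the border genes from -0.03 (without Stress 2) to 0.08 (without Stress 1). The gap between homeostatic and border medians ran from -0.15 (without Stress 1) to -0.006 (without Stress 2). A mean above 5 left Cd74 alone in the border class, at -0.50, and turned the gap to 0.44. With the replicate block, the count was 9 (7.65% of all genes) and the lowest adjusted p 0.30. Deviations of rats with the same number correlated at -0.14 to 0.42. For Control 1, Control 4 and Control 6 the Stress rat with the highest correlation bore the same number, and for the other Control rats it did not. These values cannot settle whether the numbers pair rats. Groups of 6 and dim probe sets limit what could be detected.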
